A study of Mus musculus with 12 samples.

Results

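Keratins are the intermediate filament proteins of epithelial cells. Each filament is built from pairs of a type I and a type II keratin, and the pair a cell makes is a classic sign of its kind of epithelium. KRT8 and KRT18 form the pair of simple epithelia such as ducts, with KRT7 and KRT19 as further members in ductal cells. KRT5 and KRT14 form the pair of basal cells in stratified epithelia, KRT15 is another keratin of the basal layer, KRT6A and KRT17 are made by activated and wounded epithelium, and KRT20 is typical of the intestinal and gastric lining. In ductal adenocarcinoma of the pancreas, KRT7, KRT8, KRT18 and KRT19 are the usual keratins of the tumor cells, and KRT5, KRT6A, KRT14 and KRT17 are known as markers of squamous or basal-like tumors.

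The levels of these 10 human keratin genes were examined in pancreatic tumors grown in mice. The genes were chosen by identifier, and all 10 had a row in the table of each line, among 26820 genes for AsPC-1 and 27457 for BxPC-3, or 30832 genes in all. The type II members were KRT8 (ENSG00000170421), KRT7 (ENSG00000135480), KRT5 (ENSG00000186081) and KRT6A (ENSG00000205420). The type I members were KRT18 (ENSG00000111057), KRT19 (ENSG00000171345), KRT17 (ENSG00000128422), KRT14 (ENSG00000186847), KRT15 (ENSG00000171346) and KRT20 (ENSG00000171431).

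AsPC-1 and BxPC-3 are established human lines of pancreatic ductal adenocarcinoma, and the tumors grew from these cells in the pancreas of host mice. There were 4 groups with 3 libraries each: AsPC-1 tumors with arsenic trioxide (ATO), AsPC-1 control tumors, BxPC-3 tumors with ATO, and BxPC-3 control tumors. All 4 groups carry the genotype WT in the labels. The sources used here do not give the strain or age of the hosts, the ATO dose and its timing, or the treatment of control mice. Replicates of a group are not stated to be separate animals, and the p-values therefore reflect variation among these libraries that may be technical.

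The values are FPKM, here the reads of a gene divided by its length and by a constant of the library. The 11 libraries used held 11219576 to 19306887 reads each, as recovered from the steps of the values. The library labelled BxPC-3 control 3 stood apart: across 16745 genes (not independent of each other) its log2 values correlated at 0.946 to 0.973 with the AsPC-1 libraries and at 0.691 to 0.722 with the other BxPC-3 libraries. Its keratins also followed the AsPC-1 libraries, with KRT8 at 253 FPKM, KRT5 at 0.0409 FPKM, KRT17 at 0.875 FPKM and KRT6A listed at 0. It was left out of every BxPC-3 value given here unless it is named, so BxPC-3 control has 2 libraries. The tumors hold human cancer cells and mouse host cells, and how reads from mouse cells were treated is not given. In such bulk tissue, fewer cells that make a keratin and less keratin RNA per cell cannot be told apart.

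The simple keratin pair was abundant in both lines and higher in AsPC-1. KRT8, the type II member, was at 310, 347 and 326 FPKM in AsPC-1 ATO tumors, 328, 335 and 479 FPKM in AsPC-1 control tumors, 128, 80.8 and 83.5 FPKM in BxPC-3 ATO tumors and 81.6 and 97.0 FPKM in BxPC-3 control tumors. KRT18, its type I partner, was at 433, 496 and 463 FPKM in AsPC-1 ATO tumors, 354, 398 and 575 FPKM in AsPC-1 control tumors, 113, 88.3 and 88.9 FPKM in BxPC-3 ATO tumors and 93.7 and 102 FPKM in BxPC-3 control tumors. For both genes every AsPC-1 library lay above every BxPC-3 library, with and without ATO, as held after median-ratio scaling for 32.1% of the genes tested between lines in ATO tumors and 33.9% in control tumors. The ratio within the pair overlapped between lines. KRT8 was at 0.701 to 0.927 times the FPKM of KRT18 in the AsPC-1 libraries and at 0.871 to 1.14 times in the BxPC-3 libraries. The level of this ratio rests on the recovered gene lengths, 6881 bases for KRT8 and 3218 for KRT18.

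KRT19, the smallest of the keratins and a marker of pancreatic ducts, was high in both lines. It was at 499.8, 542 and 479 FPKM in AsPC-1 ATO tumors, 431, 573 and 577 FPKM in AsPC-1 control tumors, 585, 832 and 705 FPKM in BxPC-3 ATO tumors and 536 and 484 FPKM in BxPC-3 control tumors. As deposited, the BxPC-3 ATO libraries were the highest, and the control groups of the lines overlapped. After median-ratio scaling BxPC-3 ATO replicate 1, at 546, lay below AsPC-1 control replicates 2 and 3, at 552 and 561. The ATO groups stayed apart on both scales, with AsPC-1 lower, as held for 31.6% of the genes tested on the scaled values. Among all genes of a library, KRT19 ranked 33 to 39 in AsPC-1 ATO tumors, 32 to 36 in AsPC-1 control tumors, 21 to 25 in BxPC-3 ATO tumors and 29 to 30 in BxPC-3 control tumors, counting from the highest FPKM.

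KRT7, the other type II keratin of ductal cells, separated the lines in the opposite direction to KRT8. It was at 0.620, 0.652 and 0.569 FPKM in AsPC-1 ATO tumors, 0.383, 0.615 and 0.656 FPKM in AsPC-1 control tumors, 77.2, 92.6 and 145 FPKM in BxPC-3 ATO tumors and 73.9 and 76.3 FPKM in BxPC-3 control tumors. The AsPC-1 libraries held 25 to 45 reads of KRT7 each and the BxPC-3 libraries 5766 to 15449, so the groups of the lines did not overlap. AsPC-1 libraries were lower without overlap, on the same scale, for 31.6% of the genes tested in ATO tumors and 32.5% in control tumors. In AsPC-1 tumors KRT8 was thus the type II keratin present at high level, at 500.3 to 857 times the FPKM of KRT7, and in BxPC-3 tumors this ratio was 0.577 to 1.66.

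**Figure D1:**
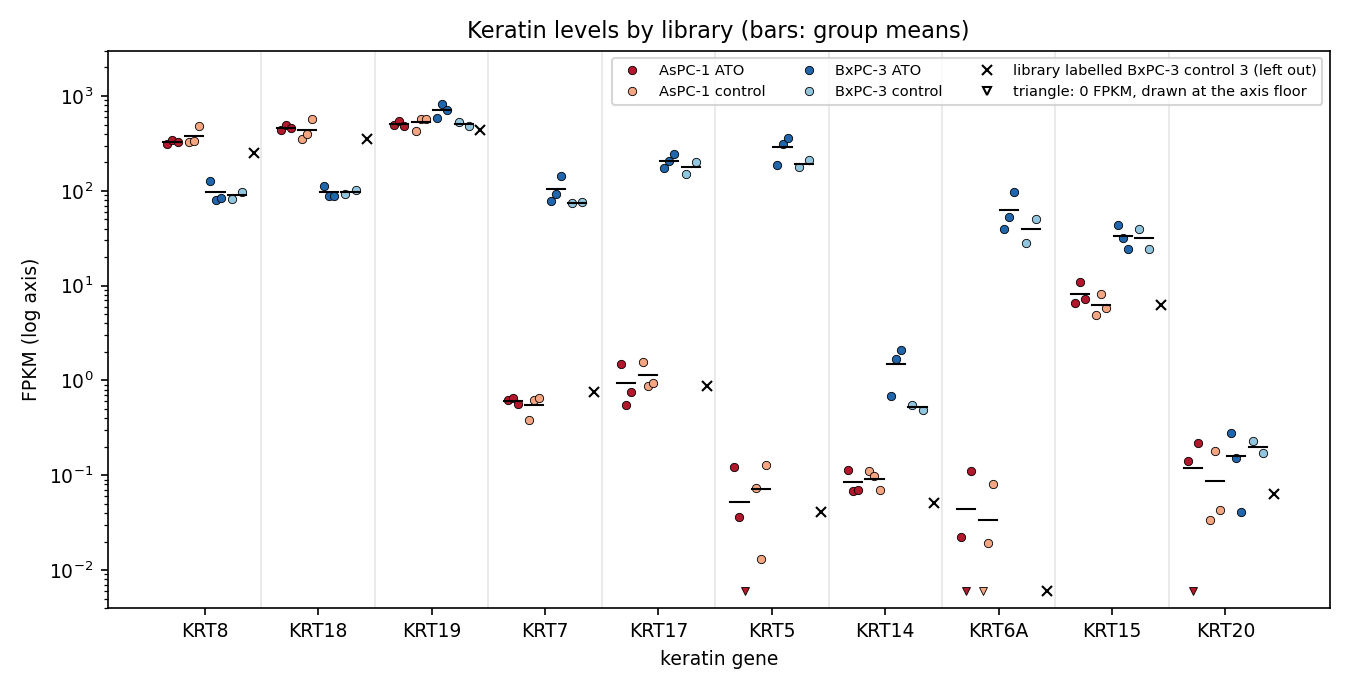
FPKM of the 10 keratins on a log axis, 1 point per library, in the order AsPC-1 ATO, AsPC-1 control, BxPC-3 ATO and BxPC-3 control for each gene, with bars at the group means. The crosses are the library labelled BxPC-3 control 3, whose KRT6A value of 0 is drawn at the axis floor, and triangles are other values of 0. KRT7, KRT17, KRT5 and KRT6A form clouds far apart for the lines. KRT8, KRT18, KRT14 and KRT15 also do not overlap between lines, and KRT19 and KRT20 do.

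Among the basal and activation keratins, KRT5, KRT17 and KRT6A were high in BxPC-3 and at most 1.58 FPKM in AsPC-1. KRT14 and KRT15, given below, did not share both traits. KRT5, the type II basal keratin, was at 0.121, 0.0366 and 0 FPKM in AsPC-1 ATO tumors, 0.0731, 0.0130 and 0.129 FPKM in AsPC-1 control tumors, 188, 311 and 364 FPKM in BxPC-3 ATO tumors and 177 and 211 FPKM in BxPC-3 control tumors. No AsPC-1 library held more than 8 reads of KRT5, and each BxPC-3 library held at least 14493. KRT5 ranked 37 to 74 among all genes in BxPC-3 ATO tumors and 67 to 88 in BxPC-3 control tumors, which places it among the most abundant transcripts per length.

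KRT17, a type I keratin of activated epithelium, followed the same split. It was at 1.49, 0.557 and 0.759 FPKM in AsPC-1 ATO tumors, 1.58, 0.882 and 0.935 FPKM in AsPC-1 control tumors, 174, 206 and 245 FPKM in BxPC-3 ATO tumors and 150.05 and 203 FPKM in BxPC-3 control tumors. KRT6A, the type II keratin known from the same activated state, was at 0.0222, 0 and 0.110 FPKM in AsPC-1 ATO tumors, 0, 0.0191 and 0.0810 FPKM in AsPC-1 control tumors, 39.3, 53.0 and 98.2 FPKM in BxPC-3 ATO tumors and 28.1 and 50.7 FPKM in BxPC-3 control tumors. For both genes the lowest BxPC-3 library lay far above the highest AsPC-1 library, and KRT6A had 0 to 4 reads in each AsPC-1 library. KRT6A has close copies in the human genome, and how reads shared with them were counted is not given in the sources used here.

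KRT14, the usual type I partner of KRT5, was low in both lines. It was at 0.114, 0.0689 and 0.0704 FPKM in AsPC-1 ATO tumors, 0.110, 0.0981 and 0.0693 FPKM in AsPC-1 control tumors, 0.683, 1.68 and 2.08 FPKM in BxPC-3 ATO tumors and 0.552 and 0.488 FPKM in BxPC-3 control tumors. The BxPC-3 libraries lay above the AsPC-1 libraries, but on counts of 24 to 124 reads against 2 to 4. KRT5 in BxPC-3 tumors far exceeded KRT14: its FPKM was 275, 185 and 175 times that of KRT14 in ATO tumors and 321 and 432 times in control tumors. It was much closer to KRT17, at 1.08, 1.51 and 1.49 times its FPKM in BxPC-3 ATO tumors and 1.18 and 1.04 times in BxPC-3 control tumors.

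KRT15, a type I keratin of basal cells, was the only basal member of the 10 above 2 FPKM in AsPC-1 tumors. It was at 6.49, 10.9 and 7.17 FPKM in AsPC-1 ATO tumors, 4.88, 8.22 and 5.82 FPKM in AsPC-1 control tumors, 43.4, 31.8 and 24.4 FPKM in BxPC-3 ATO tumors and 39.4 and 24.4 FPKM in BxPC-3 control tumors. The lines did not overlap, with 521 to 1039 reads in each AsPC-1 library and 4337 to 7092 in each BxPC-3 library. On the scaled values, 31.6% of the genes tested in ATO tumors and 32.5% in control tumors were lower in AsPC-1 without overlap. The same shares stand beside the gaps of KRT5, KRT17, KRT6A and KRT14, though KRT14 was not among the genes tested. KRT20, the intestinal keratin, was at 0.141, 0 and 0.217 FPKM in AsPC-1 ATO tumors, 0.0340, 0.182 and 0.0428 FPKM in AsPC-1 control tumors, 0.282, 0.153 and 0.0415 FPKM in BxPC-3 ATO tumors and 0.227 and 0.172 FPKM in BxPC-3 control tumors. All groups of KRT20 overlapped as deposited. After median-ratio scaling the AsPC-1 control libraries, at up to 0.175, lay just below the BxPC-3 control libraries, at 0.184 and 0.224, on 1 to 6 reads against 8 each. No library held more than 12 reads of KRT20, which is too few to give its level with any precision.

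Set against each other per length, the members gave each line its own order. In AsPC-1 ATO tumors the mean FPKM ran from KRT19 (507 ± 32.1, SD, n = 3) over KRT18 (464 ± 31.5) and KRT8 (328 ± 18.7) to KRT15 (8.18 ± 2.37). The ranges of KRT19 and KRT18 overlapped there, and KRT8 lay below both. These places are per length: KRT8 had the most reads there, 91216 against 60295 of KRT18 and 48012 of KRT19. In AsPC-1 control tumors the order was the same, with KRT19 at 527 ± 83.5, KRT18 at 443 ± 117, KRT8 at 381 ± 85.4 and KRT15 at 6.31 ± 1.72 FPKM (SD, n = 3), and the ranges of KRT19 and KRT18 and of KRT18 and KRT8 overlapped. KRT17 and KRT7 came next in both AsPC-1 groups, around 1 FPKM, and the remaining 4 members were at most 0.217 FPKM in every AsPC-1 library with overlapping neighbours.

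In BxPC-3 ATO tumors the mean FPKM ran from KRT19 (707 ± 124, SD, n = 3) over KRT5 (288 ± 90.01), KRT17 (208 ± 35.4), KRT7 (105 ± 35.3), KRT8 (97.5 ± 26.7), KRT18 (96.7 ± 14.0), KRT6A (63.5 ± 30.8) and KRT15 (33.2 ± 9.60) to KRT14 (1.48 ± 0.719) and KRT20 (0.159 ± 0.120). Only KRT19 stood clear at the top, as the ranges of KRT5 and KRT17 overlapped, and those of each neighbouring pair among KRT7, KRT8, KRT18, KRT6A and KRT15 overlapped too. In BxPC-3 control tumors KRT19 (509.7 ± 36.4, SD, n = 2) was again first, ahead of KRT5 (194 ± 23.6), KRT17 (176 ± 37.1), KRT18 (97.6 ± 5.61), KRT8 (89.3 ± 10.9), KRT7 (75.1 ± 1.68), KRT6A (39.4 ± 16.0) and KRT15 (31.9 ± 10.6). The ranges of KRT5 and KRT17, of KRT18 and KRT8 and of KRT6A and KRT15 overlapped in that group.

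The summed FPKM of the 10 keratins overlapped between the lines, while its makeup did not. The sum was 1252, 1397 and 1278 FPKM in AsPC-1 ATO tumors, 1121, 1317 and 1639 FPKM in AsPC-1 control tumors, 1349, 1697 and 1755 FPKM in BxPC-3 ATO tumors and 1180 and 1248 FPKM in BxPC-3 control tumors. KRT17, KRT5, KRT14, KRT6A and KRT15 together made up 0.658%, 0.827% and 0.634% of it in AsPC-1 ATO tumors, 0.593%, 0.701% and 0.429% in AsPC-1 control tumors, 33.1%, 35.5% and 41.8% in BxPC-3 ATO tumors and 33.5% and 39.2% in BxPC-3 control tumors. The share of these 5 genes thus separated the lines without overlap and overlapped between ATO and control tumors within each line. KRT8, KRT18 and KRT19 made up nearly all of the AsPC-1 sum, with mean shares of 25.1%, 35.4% and 38.7% in ATO tumors and 28.0%, 32.3% and 39.1% in control tumors (n = 3 each). In BxPC-3, KRT19 held 44.2% in ATO tumors (n = 3) and 42.1% in control tumors (n = 2), and KRT5 and KRT17 followed with 17.7% and 13.0% in ATO tumors and 15.9% and 14.5% in control tumors.

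**Figure D2:**
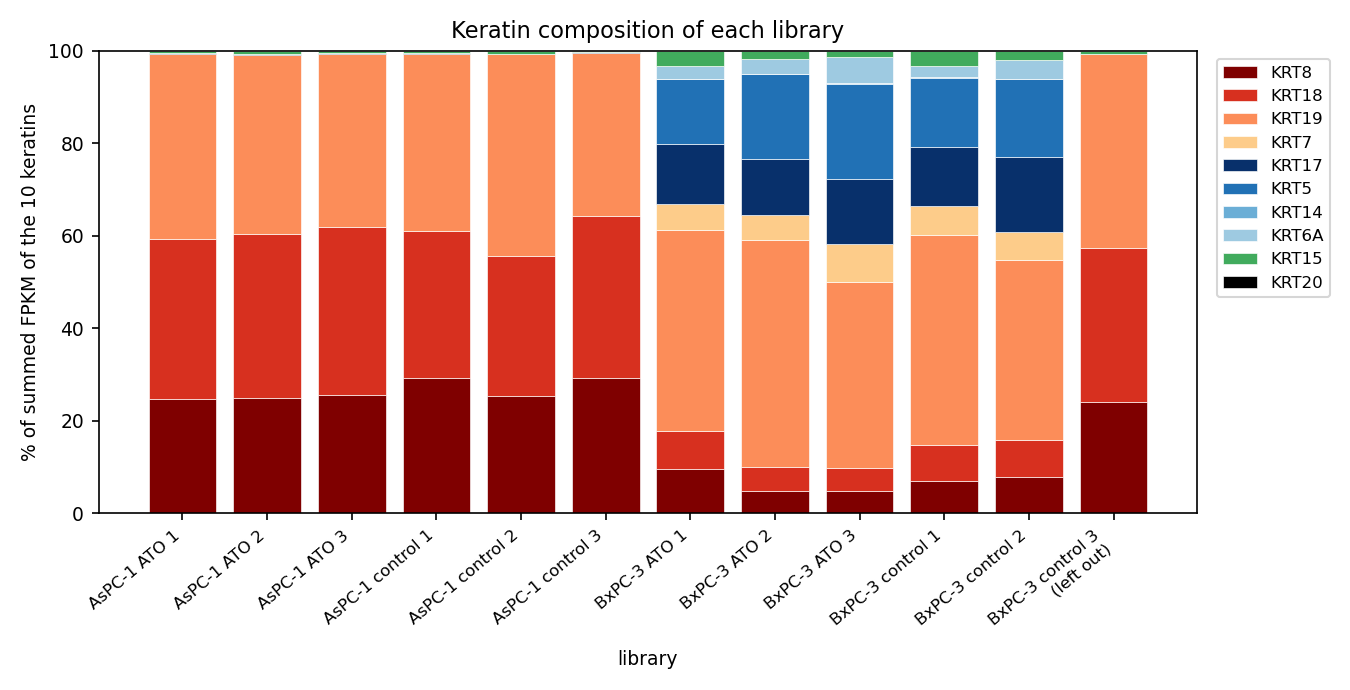
Share of each keratin in the summed FPKM of the 10 keratins, in percent, 1 stacked bar per library, with the library labelled BxPC-3 control 3 last. KRT8, KRT18 and KRT19 fill nearly the whole bar in AsPC-1 libraries, KRT5 and KRT17 take large parts in BxPC-3 libraries, and the last bar has the makeup of the AsPC-1 bars.

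The summed FPKM of the type II members was below that of the type I members in every library. These sums rest on the recovered gene lengths, 6881 bases for KRT8 against 3218 for KRT18 and 2336 for KRT19. In AsPC-1 control 1, KRT8 held 36031 reads, against 18182 of KRT18 and 16044 of KRT19. The order of the types can thus differ by reads. The ratio of type II to type I FPKM was 0.330, 0.332 and 0.344 in AsPC-1 ATO tumors, 0.415, 0.342 and 0.414 in AsPC-1 control tumors, 0.473, 0.463 and 0.648 in BxPC-3 ATO tumors and 0.440 and 0.534 in BxPC-3 control tumors. All BxPC-3 libraries lay above all AsPC-1 libraries in this ratio, which covers only the 10 members and not the other keratins of the genome.

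The difference between lines was tested with limma over 16486 genes in both tables, after median-ratio scaling of the 11 libraries, on log2(FPKM + 1). Of these genes, 59.8% were called between lines in ATO tumors (29.6% higher and 30.1% lower in AsPC-1) and 46% in control tumors (23.2% higher and 22.8% lower in AsPC-1), at an adjusted p of 0.05, and 63.9% and 53.2% in ATO and control tumors were under an unadjusted p of 0.05. Against that background, KRT8 and KRT18 were called higher in AsPC-1 in both contrasts, KRT7, KRT17, KRT5, KRT6A and KRT15 were called lower in both, and KRT19 was called lower in ATO tumors alone. KRT7, KRT5 and KRT6A reached the minimum of 1 FPKM in 3 libraries only through BxPC-3 and so had to differ. KRT17 was above 1 FPKM in AsPC-1 control 1 and AsPC-1 ATO 1 only, so it too needed BxPC-3 libraries to pass. KRT14 and KRT20 did not reach the minimum and were not tested in this fit.

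KRT18 was higher in AsPC-1 by 2.04 on the log2 scale in ATO tumors (SE 0.18, limma adjusted p = 4.21e-06) and by 2.12 in control tumors (SE 0.20, limma adjusted p = 1.10e-05). KRT8 was higher by 1.55 in ATO tumors (SE 0.19, limma adjusted p = 5.77e-05) and by 2.04 in control tumors (SE 0.22, limma adjusted p = 2.71e-05). Both partners of the simple pair thus moved the same way between lines. KRT15 was lower in AsPC-1, with differences of -2.09 in ATO tumors (SE 0.22, limma adjusted p = 1.85e-05) and -2.18 in control tumors (SE 0.25, limma adjusted p = 4.61e-05). KRT15 is the one basal member tested that passed the minimum in both lines.

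KRT5 had the largest difference of the members. It was -8.10 in ATO tumors (SE 0.25) and -7.54 in control tumors (SE 0.28). KRT17 was at -6.89 in ATO tumors and -6.40 in control tumors. KRT7 was at -6.10 in ATO tumors and -5.66 in control tumors, and KRT6A at -5.90 and -5.27. These 4 genes were all at most 1.58 FPKM in AsPC-1, where adding 1 FPKM before the logarithm understates the difference. As none of them passed the minimum without BxPC-3, no p-value is given for them here.

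**Figure D3:**
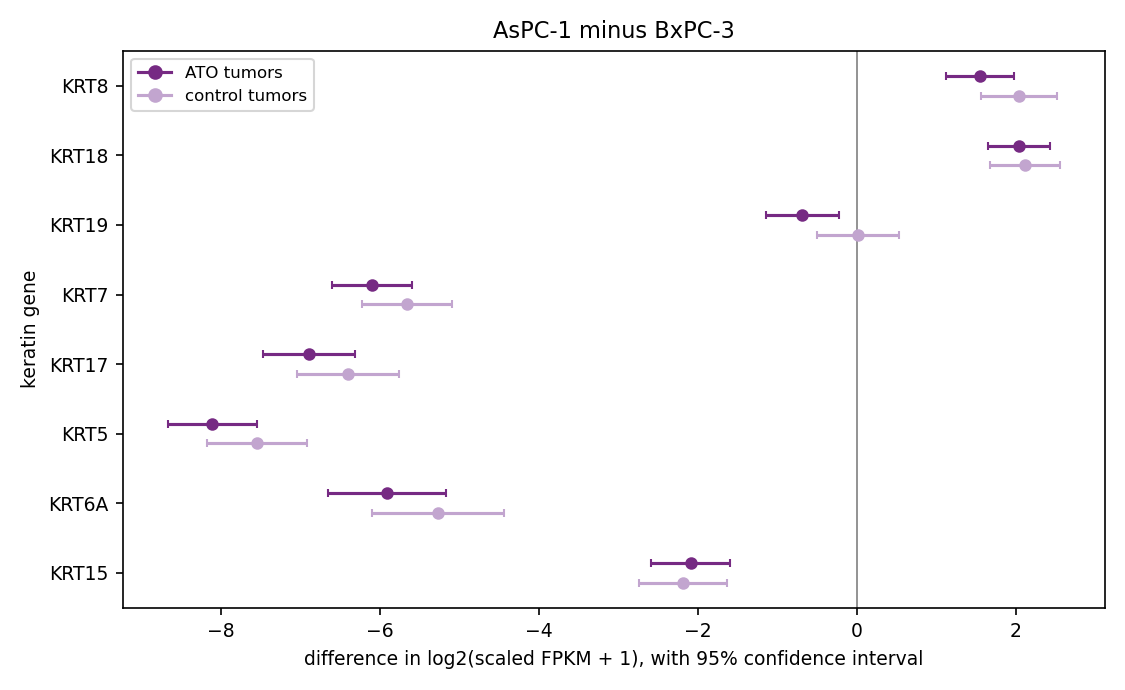
AsPC-1 minus BxPC-3 difference in log2(scaled FPKM + 1) for the 8 keratins tested, with 95% confidence intervals from limma, ATO tumors above control tumors for each gene. KRT8 and KRT18 lie right of 0, KRT7, KRT17, KRT5, KRT6A and KRT15 lie left of it, and KRT19 lies left of 0 in ATO tumors and on it in control tumors. KRT7, KRT5 and KRT6A passed the minimum only through BxPC-3, so their place left of 0 was fixed in advance. KRT17 also needed BxPC-3 libraries to pass.

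The reads behind the low values give the size of these gaps with their counting error. With the reads pooled within a group and set on the common scale, KRT5 was 5844 times higher in BxPC-3 in ATO tumors (exact 95% counting interval 3178 to 12187, from 10 AsPC-1 reads and 87658 BxPC-3 reads) and 3073 times higher in control tumors (1797 to 5771, from 13 and 37230 reads). KRT6A was 1794 times higher in BxPC-3 in ATO tumors (768 to 5525) and 1422 times in control tumors (555 to 5222), from 5 and 4 AsPC-1 reads. KRT17 was 250 times higher in BxPC-3 in ATO tumors (206 to 307) and 162 times in control tumors (136 to 193), and KRT7 was 201 times (166 to 247) and 141 times (116 to 172) higher. These intervals cover counting error only and not the spread between libraries, since the reads of a group were pooled. Reads are not independent molecules, so even the counting error may be understated. The intervals of KRT5 and KRT6A are wide, as each rests on 13 or fewer AsPC-1 reads.

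Single libraries carried most of these few reads. Of the 10 KRT5 reads in AsPC-1 ATO tumors, 8 came from replicate 1, and without it the ratio was 19144 (5300 to 158084, from 2 reads). In control tumors the KRT5 ratio was 1988 without AsPC-1 replicate 2 and 4774 without AsPC-1 replicate 3. Of the 5 KRT6A reads in AsPC-1 ATO tumors, 4 came from replicate 3, and without it the ratio was 6103 (1095 to 241066, from 1 read), against 1192 without replicate 2. In control tumors the KRT6A ratio was 4080 without AsPC-1 replicate 3, which held 3 of the 4 reads, and 934 without BxPC-3 replicate 2. The KRT17 ratio in ATO tumors was 390.1 without AsPC-1 replicate 1. The ratios of KRT5 and KRT6A are thus known only roughly.

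KRT14, which was not tested on FPKM, was 20.1 times higher in BxPC-3 in ATO tumors (10.03 to 47.1, from 8 and 241 reads) and 5.58 times in control tumors (2.80 to 12.3, from 10 and 52 reads). On recovered reads it reached the minimum of 1 CPM in 3 libraries only through BxPC-3 and so had to differ there too, and voom gave AsPC-1 minus BxPC-3 differences of -3.92 in ATO tumors and -2.32 in control tumors. KRT20 was 1.48 times higher in BxPC-3 in ATO tumors and 2.15 times in control tumors, and both counting intervals (0.645 to 3.70 and 0.866 to 5.79) held 1. These values of KRT20 moved to 0.931 without BxPC-3 ATO replicate 1, to 0.984 and 2.27 without AsPC-1 ATO replicates 2 and 3, and to 5.12 without AsPC-1 control replicate 2.

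KRT19 was the member called between lines in ATO tumors alone, and that call depended on the scale. Whether its line difference changed with treatment is tested by the line by treatment term given further on, which was not called. It was -0.68 in ATO tumors (SE 0.21, 95% confidence interval -1.15 to -0.22, limma adjusted p = 0.0158) and 0.016 in control tumors (SE 0.23, -0.50 to 0.53, limma adjusted p = 0.961). The call in ATO tumors was lost on the deposited scale (-0.47, limma adjusted p = 0.0539), where the median of all genes tested was 0.17. It was also lost without AsPC-1 ATO replicate 3 (adjusted p = 0.0640 by limma), without BxPC-3 ATO replicate 2 (0.0616) and without BxPC-3 ATO replicate 3 (0.0503), and over all alternatives its adjusted p ran from 0.000323 to 0.0640. The interval in control tumors spans both directions, and the nearly equal means there do not show equal levels.

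With the library labelled BxPC-3 control 3 in its group, no gene was called between lines in control tumors by limma, where 0 of 16633 passed, nor by voom, where 0 of 17497 passed. KRT8 was then at 1.58 and KRT18 at 1.55, both with a limma adjusted p of 0.1005, and KRT5 was at -5.02 with the same adjusted p. In ATO tumors all 8 keratins were still called on FPKM, but KRT5 and KRT6A were not with voom (limma adjusted p = 0.147 and 0.105).

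The comparison of ATO with control tumors asks whether the keratins differed with treatment in each line. In the fit without a replicate block (replicate number as a covariate), no gene was called in AsPC-1 by limma on FPKM. There 0 of 15287 genes (0%) were under an adjusted p of 0.05 and 3210 genes (21%) under an unadjusted p of 0.05. Voom on recovered reads called 43 genes. With a block, 1193 genes were called on FPKM and 3323 with voom, and no keratin was among them. KRT8, KRT18, KRT19 and KRT15 were tested without a block, and none of them passed at an unadjusted p of 0.05. With a block, 1 keratin did so on FPKM and 1 with voom, and neither was called. KRT7, KRT17, KRT5, KRT14, KRT6A and KRT20 were below the minimum level there.

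In AsPC-1 tumors the ATO minus control difference was -0.19 for KRT8 (SE 0.20, 95% confidence interval -0.65 to 0.26, limma adjusted p = 0.558). It was 0.097 for KRT18 (SE 0.21, -0.40 to 0.59, limma adjusted p = 0.796), -0.045 for KRT19 (SE 0.18, -0.47 to 0.38, limma adjusted p = 0.895) and 0.32 for KRT15 (SE 0.24, -0.23 to 0.88, limma adjusted p = 0.424). For all 4 genes the ATO and control libraries overlapped as deposited. The median of all tested genes was shifted by 0.12 in this fit, and relative to it the values were -0.32 for KRT8, -0.026 for KRT18, -0.17 for KRT19 and 0.20 for KRT15. The reads recovered were 105%, 118% and 112% of the total implied by the library constant in AsPC-1 ATO libraries and 86.3%, 88.0% and 88.7% in AsPC-1 control libraries. This percentage thus differed between the treatment groups without overlap, while the constants themselves overlapped, and values after rescaling follow.

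After median-ratio scaling the KRT8 libraries no longer overlapped in AsPC-1. KRT8 then averaged 292 ± 12.2 in ATO tumors and 383 ± 73.8 in control tumors on the scaled FPKM (SD, n = 3 each), a difference of -0.39 with a limma adjusted p of 0.276, and over all alternatives the adjusted p of KRT8 ran from 0.131 to 0.960. KRT18 was at 413 ± 13.7 in ATO tumors and 444 ± 98.8 in control tumors on that scale, and these overlapped. On the scaled values, 13.8% of the genes tested in AsPC-1 were higher in every ATO library than in every control library and 11.8% were lower, KRT8 among the lower ones. As deposited, these shares were 17.4% and 8.1%, and 0 of the 4 keratins tested were among them.

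The ratio of the simple pair does not depend on the library constant, and in AsPC-1 it differed between the groups without overlap. KRT8 was at 0.717, 0.701 and 0.704 times the FPKM of KRT18 in ATO tumors, against 0.927, 0.841 and 0.834 in control tumors. The mean ratio was 0.707 ± 0.0083 in ATO tumors and 0.867 ± 0.0516 in control tumors (SD, n = 3 each), and the 3 ATO libraries spread less than the 3 control libraries. In BxPC-3 it was 1.14, 0.915 and 0.939 in ATO tumors, against 0.871 and 0.955 in control tumors, which overlap. The ratio was picked among several after its values were seen and no test is given, and neither gene was called on its own. How often ratios of other genes separate the groups was not counted. Among single genes in AsPC-1, 17.4% were higher and 8.1% lower in ATO tumors without overlap as deposited.

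**Figure D4:**
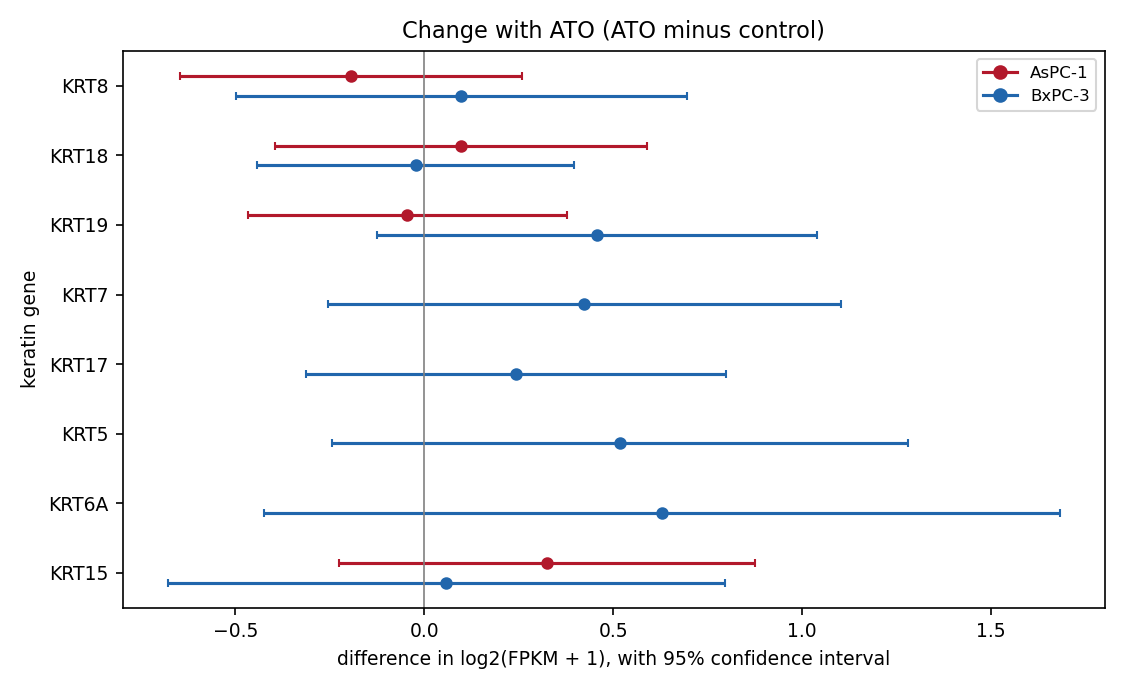
ATO minus control difference in log2(FPKM + 1) for each keratin tested, with 95% confidence intervals from limma, AsPC-1 above BxPC-3 where both were tested. Every interval includes 0, and those of KRT19, KRT7, KRT5 and KRT6A in BxPC-3 reach furthest to the right.

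In BxPC-3 tumors no gene was called without a block either. By limma 0 of 14633 genes (0%) were under an adjusted p of 0.05 and 758 genes (5.18%) under an unadjusted p of 0.05. Voom called 0 genes. With a block, 0 genes were called on FPKM and 4 with voom, and no keratin was among them. Of the 8 keratins tested on FPKM without a block, none passed at an unadjusted p of 0.05. KRT19, KRT7 and KRT14 were higher in each ATO library than in both control libraries, which held for 12.3% of all genes tested, though KRT14 was not among those tested, and KRT7 overlapped after median-ratio scaling. No member was lower in each ATO library, against 9.34% of all genes tested. After that scaling the shares were 9.69% higher and 10.8% lower.

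The ductal keratin KRT19 averaged 707 ± 124 FPKM in BxPC-3 ATO tumors (n = 3) and 509.7 ± 36.4 in BxPC-3 control tumors (n = 2), and its difference was 0.46 (SE 0.24, -0.12 to 1.04, limma adjusted p = 0.883). KRT7 was at 0.42 (SE 0.28, -0.25 to 1.10, limma adjusted p = 0.883), while KRT8 was at 0.098 (SE 0.24, -0.50 to 0.70, limma adjusted p = 0.948) and KRT18 at -0.022 (SE 0.17, -0.44 to 0.40, limma adjusted p = 0.988). Of the basal members, KRT5 was at 0.52 (SE 0.31, -0.24 to 1.28, limma adjusted p = 0.883), KRT6A at 0.63 (SE 0.43, -0.42 to 1.68, limma adjusted p = 0.883), KRT17 at 0.24 (SE 0.23, -0.31 to 0.80, limma adjusted p = 0.892) and KRT15 at 0.058 (SE 0.30, -0.68 to 0.80, limma adjusted p = 0.979). The median of all genes tested was -0.0067, and the upper bounds leave room for an increase of more than 2-fold in KRT5, KRT6A, KRT7 and KRT19. KRT14, on recovered reads, was at 1.34 by voom with limma (adjusted p = 0.827).

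The 3 BxPC-3 ATO libraries did not share 1 keratin pattern. Set against the mean of the control libraries, ATO replicate 1 had KRT5 at 0.971, KRT17 at 0.989, KRT6A at 0.998 and KRT7 at 1.03 times that mean, with KRT8 at 1.44 times. Replicate 2 had KRT5 at 1.60, KRT17 at 1.17, KRT6A at 1.35 and KRT7 at 1.23 times, with KRT8 at 0.905 times, and replicate 3 had KRT5 at 1.88, KRT17 at 1.39, KRT6A at 2.49 and KRT7 at 1.92 times, with KRT8 at 0.935 times. Replicate 1 thus lay among the controls for KRT5, KRT17 and KRT6A and above them for KRT8, and the other two replicates lay above the controls for KRT5, KRT17, KRT6A and KRT7 and under their mean for KRT8. KRT14 was at 1.31, 3.22 and 4.003 times the control mean in replicates 1, 2 and 3, KRT15 at 1.36, 0.998 and 0.765 times, and KRT20 at 1.41, 0.768 and 0.208 times on 12, 6 and 2 reads.

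**Figure D5:**
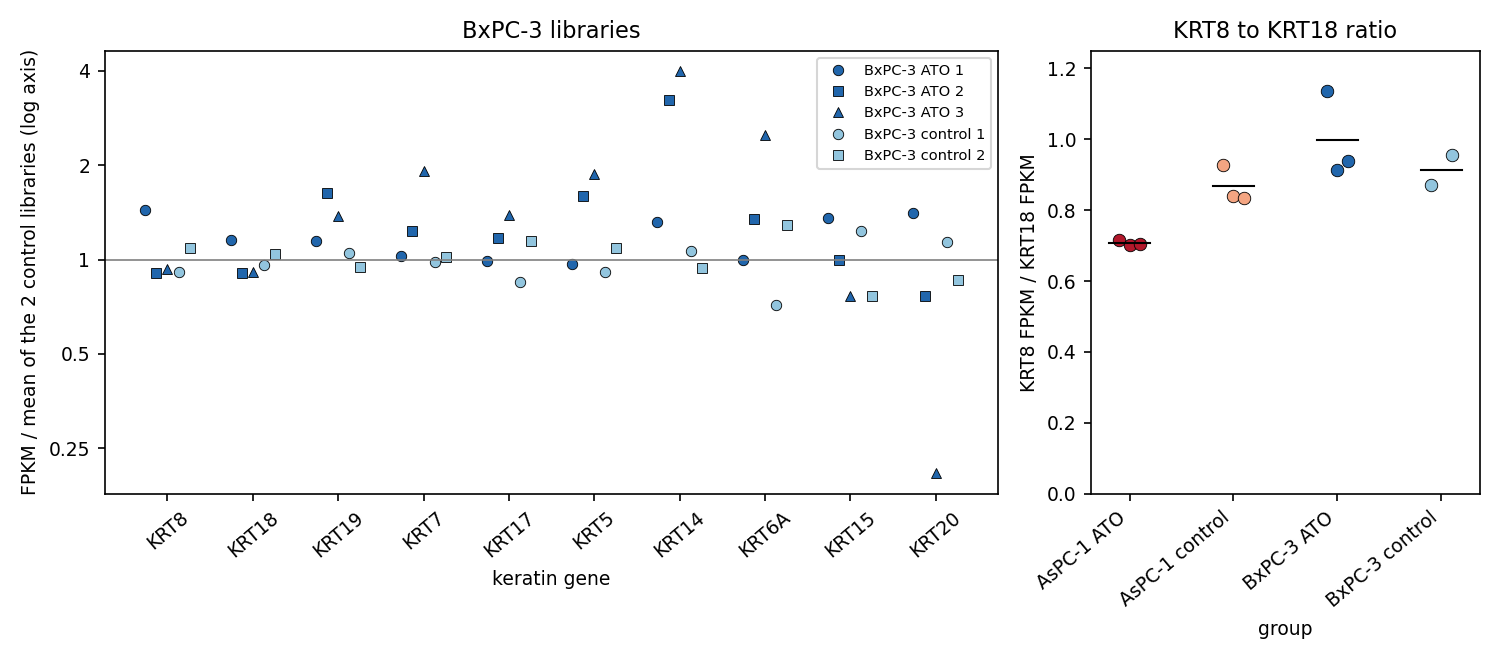
Left, FPKM of each keratin in the BxPC-3 libraries over the mean of the 2 control libraries, on a log axis, ATO in dark and control in light blue; ATO replicate 1 (circle) lies below replicates 2 and 3 for KRT5, KRT17, KRT6A, KRT7, KRT14 and KRT19 and above them for KRT8, KRT18, KRT15 and KRT20. Right, KRT8 over KRT18 FPKM by group with bars at the means; the AsPC-1 ATO points at 0.701 to 0.717 lie below the AsPC-1 control points at 0.834 to 0.927.

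With the library labelled BxPC-3 control 3 in the control group, the same comparison gave larger values without a call. KRT5 was then at 3.03, KRT17 at 2.42, KRT6A at 2.39 and KRT7 at 2.24, and KRT8 at -0.40 and KRT18 at -0.64, all with a limma adjusted p of 0.765 or above. That library had 3 reads of KRT5 and 0 of KRT6A, and 0 of 15135 genes were called.

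Whether the keratins changed differently with ATO in the lines was tested as the line by treatment term in the fit of 11 libraries. No gene was called by limma (0 of 16486, 0%), with 2537 genes (15.4%) under an unadjusted p of 0.05 and 0 genes called by voom. The term could be read for KRT8, KRT18, KRT19 and KRT15, which passed the minimum in both lines. KRT7, KRT17, KRT5, KRT6A and KRT14 are near 0 in AsPC-1, so their term would only give the BxPC-3 change with its sign turned, and KRT20 was not tested; no term is given for these 6. Of the 4, KRT19 was under an unadjusted p of 0.05, with a term of -0.70 (SE 0.31, -1.40 to -0.0053, unadjusted p = 0.0486 and adjusted p = 0.322 by limma). The term was -0.49 for KRT8 (-1.13 to 0.15, limma adjusted p = 0.407), -0.077 for KRT18 (-0.67 to 0.51, limma adjusted p = 0.889) and 0.092 for KRT15 (-0.65 to 0.83, limma adjusted p = 0.896). The median over all genes was -0.047, and a negative term means a lower ATO minus control difference in AsPC-1 than in BxPC-3. Without BxPC-3 ATO replicate 1, 470 genes were called, and KRT19 was not among them, with a term of -0.91 and a limma adjusted p of 0.0789. Over all alternatives the adjusted p of KRT19 ran from 0.0789 to 0.683.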

How the data were processed

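The authors deposited 1 table of FPKM values per line, and the unit was read from the values, as the tables state none. Total RNA and a SMARTer mRNA kit were used, per the labels' protocols. Per the submitters' processing notes the builds were GRCm38, mm10 and hg38, with no role stated; the sources used here do not give the aligner, the counter or the annotation. The tables pair no names with identifiers, so keratin names come from the rule that chose the members, and other genes were not analysed here by name. A space within 1 value was removed. Whole reads and gene lengths of up to 30000 bases were recovered from the steps of the values (tolerance 1e-05 reads; 99.9% of genes whole in each table) in Python 3.11.15 (pandas 2.3.3, numpy 2.4.6). They came to 72.6% to 118% of the total that each library's constant implies, and the recovered lengths of the keratins were 1846 (KRT20) to 7069 bases (KRT15).

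Values were tested as log2(FPKM + 1) with the trended eBayes of limma 3.58.1 (R 4.3.3). Genes needed 1 FPKM or more in 3 libraries of a fit, and p-values were adjusted by Benjamini-Hochberg across the tested genes, with a threshold of 0.05. Each line was fitted alone. The lines were compared in 1 fit of 4 groups over the 11 libraries after median-ratio scaling (factors 0.908 to 1.20). Fold changes understate the change of low genes. The design had foreseen normalized values or counts. Voom was run on recovered reads for genes that reached 1 CPM in 3 libraries, with median-ratio size factors. Counting intervals are exact (95%) and were computed with scipy 1.17.1, and figures were drawn with matplotlib 3.10.9. All 10 members are named in each comparison. Members and lists were chosen with earlier results of these data known. Scripts were tested on simulated data.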

Additional observations from a re-analysis of the deposited data

Results flagged for a closer look

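A pair of values stood out in the library that was left out of the comparisons. The library labelled BxPC-3 control 3 held KRT18 at 352 FPKM, above the 93.7 and 102 FPKM of the other BxPC-3 controls and just below the 354 to 575 FPKM of the AsPC-1 controls. It held KRT8 at 253 FPKM, against 81.6 and 97.0 FPKM in the other BxPC-3 controls and 328 to 479 FPKM in the AsPC-1 controls. Groups of 3 or fewer libraries were not searched for single outlying values.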

How the results depend on the processing

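Alternatives were a pseudocount of 0.1, no filter, quantile normalization, another scaling, voom on recovered reads, a replicate block, BxPC-3 control 3 included, and each library left out in turn; voom with a block and voom with BxPC-3 control 3 were chosen after seeing the data. Of 644 alternative values for the keratins' differences, 589 kept direction and call, 20 lost a call and 35 reversed; of 160 mean levels, 12 moved by more than the replicate spread; of 87 counts of genes, 76 stayed within 1.5 times. No keratin was called for ATO against control or for the line by treatment term under any of these. The cause of each change was not tested.

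Genes called for ATO in AsPC-1 numbered 1 after median-ratio scaling, 43 with voom, 1193 with a replicate block, 3323 with voom and a block, and 0 to 1 with a library left out (1 without ATO replicate 1). Whether replicate numbers pair the samples was not settled, and the main fits have no block. Same-numbered deviations correlated at 0.331, 0.1996 and 0.0814 in AsPC-1 and 0.146 and 0.0591 in BxPC-3. In AsPC-1, control 1, control 2, ATO 1 and ATO 3 correlated best with the library of their own number. AsPC-1 control 3 and ATO 2 correlated best with each other. In BxPC-3, 4 genes were called with voom and a block, and 0 to 6 with a library left out (6 without ATO replicate 1). Between lines in control tumors 0 were called with BxPC-3 control 3, on FPKM or with voom. The line by treatment term gave 0 to 470 with a library left out (15 without BxPC-3 control 2, 470 without BxPC-3 ATO 1). The block left 9307 and 6729 genes between lines in ATO and control tumors.

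For ATO in AsPC-1, KRT18 reversed to -0.098 with median-ratio scaling, -0.064 with voom and -0.065 with voom and a block, and ran from -0.047 to 0.30 with a library left out; KRT19 ran from -0.18 to 0.027. In BxPC-3, KRT8 was -0.40 with control 3 and -0.43 with voom and control 3, and ran from -0.11 to 0.22; KRT18 was 0.030 with quantile normalization and 0.033 with a replicate block, and ran from -0.14 to 0.037; KRT15 ran from -0.28 to 0.39. Between lines in control tumors KRT19 was -0.32 with quantile normalization and ran from -0.020 to 0.098. In the line by treatment term, KRT8 was 0.0093 with voom and control 3. KRT18 was 0.088 with quantile normalization, 0.12 as deposited, 0.49 with control 3 and 0.54 with voom and control 3, and ran from -0.19 to 0.098. KRT15 was -0.011 with a replicate block, -0.66 with control 3 and -0.67 with voom and control 3, and ran from -0.18 to 0.37.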
